A study of Mus musculus with 12 samples.

Results

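miR-7a is 1 of the 611 mouse miRNA names, and of 650 names in all, measured on 1-colour Agilent arrays in fibroblasts from C57BL/6 mouse embryos. It was picked by name, mmu-miR-7a, and chosen by its measured values: earlier results of these data had its spot signals and the scanner software's total gene signal pointing in different directions. Both measures were part of the choice, and the levels of miR-7a below are a description with no test. The cells either lacked the transcription factor ATF4 (KO) or carried it (WT), and ATF4 is a mediator of the endoplasmic reticulum (ER) stress response. The 6 groups were untreated KO cells, KO cells given 2 ug/mL tunicamycin for 12 h, KO cells given it for 24 h, and the same 3 conditions in WT cells. Tunicamycin blocks N-linked glycosylation and so causes ER stress. Each group had 2 arrays from independent experiments, per the submitters, and the labels do not say whether a genotype was 1 cell line or several isolates. The question stated for the series was which miRNAs responded to 12 h of tunicamycin in a way that depended on ATF4.

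miR-7 is a deeply conserved miRNA best known from neurons and from endocrine cells such as those of the pancreatic islet, where it is far more abundant than in most other tissues. Like other miRNAs it guides Argonaute proteins to messenger RNAs that pair with its seed, the stretch near its 5′ end, and represses them. The circular RNA Cdr1as, which carries many sites for miR-7, is its best-known partner. In mouse the same mature miR-7a comes from 2 genes. In the RefSeq annotation of GRCm38.p6, Mir7-1 gives it at chr13:58392841-58392863 on the minus strand, inside the span of Hnrnpk, the gene of an RNA-binding protein. Mir7-2 gives it at chr7:78888295-78888317 on the plus strand, where no other annotated gene overlapped the hairpin and the nearest, the long noncoding Gm39039, began 5402 bases away. The arrays measured the mature product, so the share of either gene was not measured.

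The mature sequences are shown because miR-7a and its paralog miR-7b share their seed and were measured by separate probes. They are RefSeq's for GRCm38.p6, 5′ to 3′, with the seed (bases 2 to 8) in capitals; the last 2 are the opposite, usually minor, strands of the miR-7a hairpins, 1 of which the array names miR-7a*.
mmu-miR-7a-5p: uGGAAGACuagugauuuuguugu
mmu-miR-7b-5p: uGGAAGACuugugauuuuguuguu
mmu-miR-7a-1-3p: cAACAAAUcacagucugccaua
mmu-miR-7a-2-3p: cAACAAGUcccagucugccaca
Counted from the 5′ end, miR-7a-5p and miR-7b-5p differed by 1 substitution, A10U, and miR-7b-5p was 24 bases long against 23. Among the mature mouse miRNAs of the same table, no other name had this seed. miR-7b comes from Mir7b, at chr17:56243017-56243040 on the plus strand.

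The 8 tunicamycin arrays lay on one slide and the 4 untreated ones on the other, which means that slide and treatment cannot be told apart. KO and WT arrays sat at different positions on the slides, so genotype and position cannot be told apart either. Within each slide the arrays were scanned on 2 dates, 1 for each replicate number, so replicate number and scan date cannot be told apart. The arrays of 1 date, called a scan below, held both genotypes. Between 93 and 167 names per array were well above background, a flag that the software sets for a spot and that was taken here to hold for a probe when at least 50% of its spots carried it. Of 8 fibroblast-abundant miRNAs, 7 were well above background on at least 1 array and 5 on all 12, while miR-145 was so on none. The summed signal of these 8 ran from 24627 to 27223 on untreated KO and 24297 to 24808 on untreated WT arrays, from 12469 to 15918 on KO and 10778 to 10789 on WT arrays at 12 h, and from 7280 to 14794 on KO and 8621 to 8885 on WT arrays at 24 h. Over the 12 arrays miR-21 ran from 5686 to 20770, miR-199a-3p from 256 to 3254 and miR-214 from 56.1 to 1504. The sum leans on miR-21 and does not show whether the other names were alike between genotypes. None of 6 epithelial and none of 2 neural markers was well above background on any array, and 1 of 4 blood or endothelial, 1 of 4 muscle and 1 of 6 pluripotent markers was so on 1 or 2 arrays. Atf4 itself is not measured on such arrays, so nothing here checks the genotype labels.

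miR-7a had 2 probes with 10 spots each, and 7 of its 240 spots over the 12 arrays were flagged as outliers and left out. Signals are processed signals of the scanner software, background-subtracted and in arbitrary units. The spots of the brighter probe, A_54_P2659, averaged 28.8 and 32.1 on the untreated KO arrays, 7.31 and 9.69 on the KO arrays at 12 h and 6.27 and 13.1 on the KO arrays at 24 h. The same probe averaged 105.2 and 100.2 on the untreated WT arrays, 50.01 and 57.7 on the WT arrays at 12 h and 52.8 and 40.5 on the WT arrays at 24 h. All 6 KO arrays were thus below all 6 WT arrays before any scaling, and this held for single spots. The 57 KO spots of this probe lay between 3.65 and 36.5 and the 59 WT spots between 36.9 and 112.7. Spots of 1 array share a hybridisation and are no replicates. All 10 spots were well above background on every WT array and on both untreated KO arrays. Of the 10 spots, 3 and 1 were so on the KO arrays at 12 h, and 0 and 3 on the KO arrays at 24 h.

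The dimmer probe, A_54_P2658, averaged 2.74 and 2.82 on the untreated KO arrays against 12.1 and 11.9 on the untreated WT arrays. At 12 h it averaged 1.93 and 3.75 in KO and 6.13 and 6.96 in WT cells. At 24 h it averaged 1.62 and 2.70 in KO and 6.96 and 4.20 in WT cells. Its array means were also lower in every KO array than in every WT array. Its single spots overlapped between the genotypes at 12 h and at 24 h, and did not when untreated, where KO spots reached 5.83 and WT spots began at 7.03. It was well above background on 1 array, untreated WT replicate 1, where 6 of its 10 spots carried the flag.

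**Figure D1:**
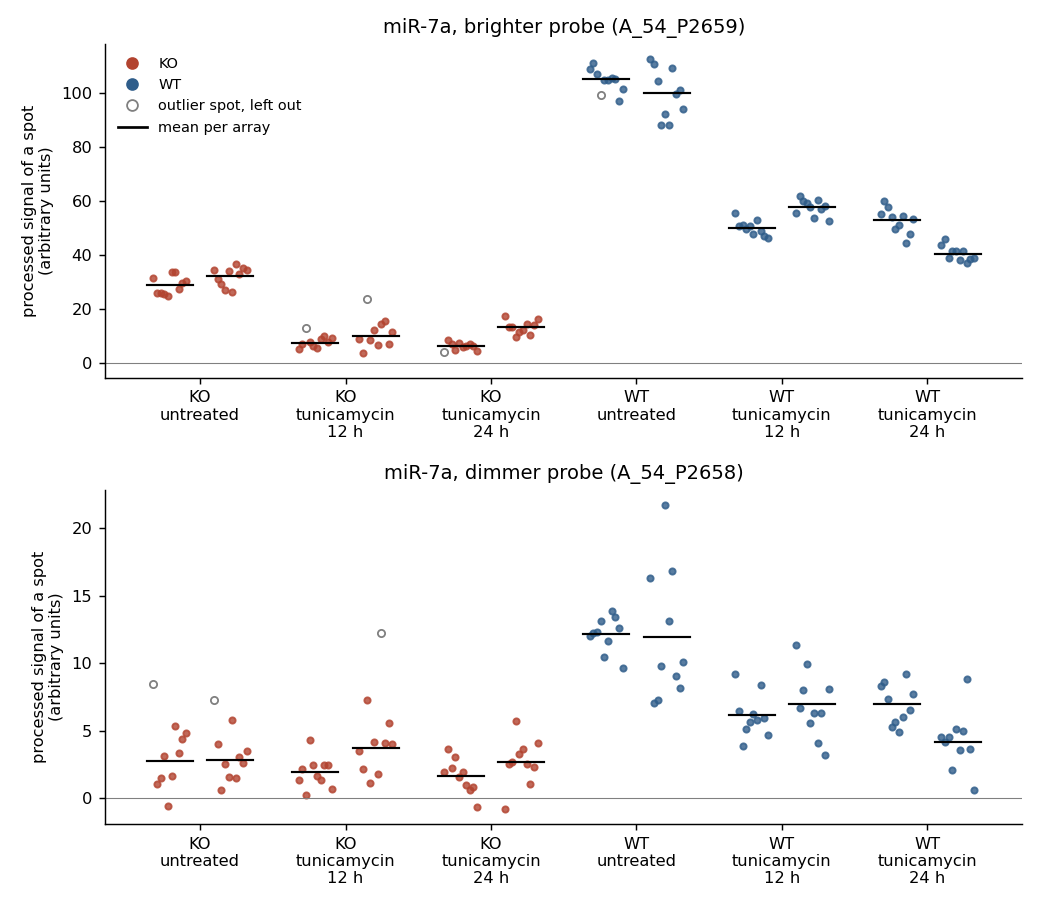
Processed signal of each spot of both miR-7a probes (vertical axes, arbitrary units, not scaled between arrays) on each of the 12 arrays, in pairs of replicates 1 and 2 by group, KO (red) left of WT (blue); black lines are array means and open grey circles are outlier spots that were left out. For the brighter probe the highest KO spot used, 36.5, lies just under the lowest WT spot, 36.9.

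The mean spot signals of both probes were added to give the signal of miR-7a. It came to 31.5 and 35.0 on the untreated KO arrays, 9.23 and 13.4 on the KO arrays at 12 h and 7.88 and 15.8 on the KO arrays at 24 h. It came to 117.4 and 112.1 on the untreated WT arrays, 56.1 and 64.6 on the WT arrays at 12 h and 59.7 and 44.7 on the WT arrays at 24 h. The arrays themselves differed in brightness. The 75th percentile, taken over the 82 names that all 12 arrays measured well above background, was 709.5 and 791.2 on the untreated KO arrays and 577.0 and 555.7 on the untreated WT arrays. It was 515.4 and 417.9 on the KO and 431.5 and 570.1 on the WT arrays at 12 h, and 203.5 and 566.3 on the KO and 288.3 and 354.1 on the WT arrays at 24 h. Each signal was therefore divided by this percentile of its array, raised to a floor of 0.0322, and put on a log2 scale.

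On that log2 scale miR-7a stood at -4.49 and -4.50 on the untreated KO arrays, at the floor of -4.96 on both KO arrays at 12 h, and at -4.69 and -4.96 on the KO arrays at 24 h. It stood at -2.30 and -2.31 on the untreated WT arrays, -2.94 and -3.14 on the WT arrays at 12 h and -2.27 and -2.99 on the WT arrays at 24 h. The genotypes did not overlap at any time, and all 4 KO tunicamycin arrays were not well above background. The tested miRNAs were 145 mouse names that both arrays of 1 group or more measured well above background. Of these, 10 (6.9%) had all 6 KO arrays below all 6 WT arrays, miR-7a among them, and 4 (2.76%) had all 6 above. Of the 145, miR-7a alone (0.69%) was well above background on all 6 WT arrays and on none of the 4 KO tunicamycin arrays. miR-7a was chosen with its values known, so this count is a description. Levels at the floor in KO tunicamycin cells were not particular to miR-7a. miR-222, well above background on 9 arrays, averaged -4.96 in KO cells at 12 h and at 24 h. In WT cells it averaged -3.52 at 12 h and -3.32 at 24 h. In such bulk RNA, fewer cells that carry a miRNA and less of it per cell cannot be told apart.

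**Figure D2:**
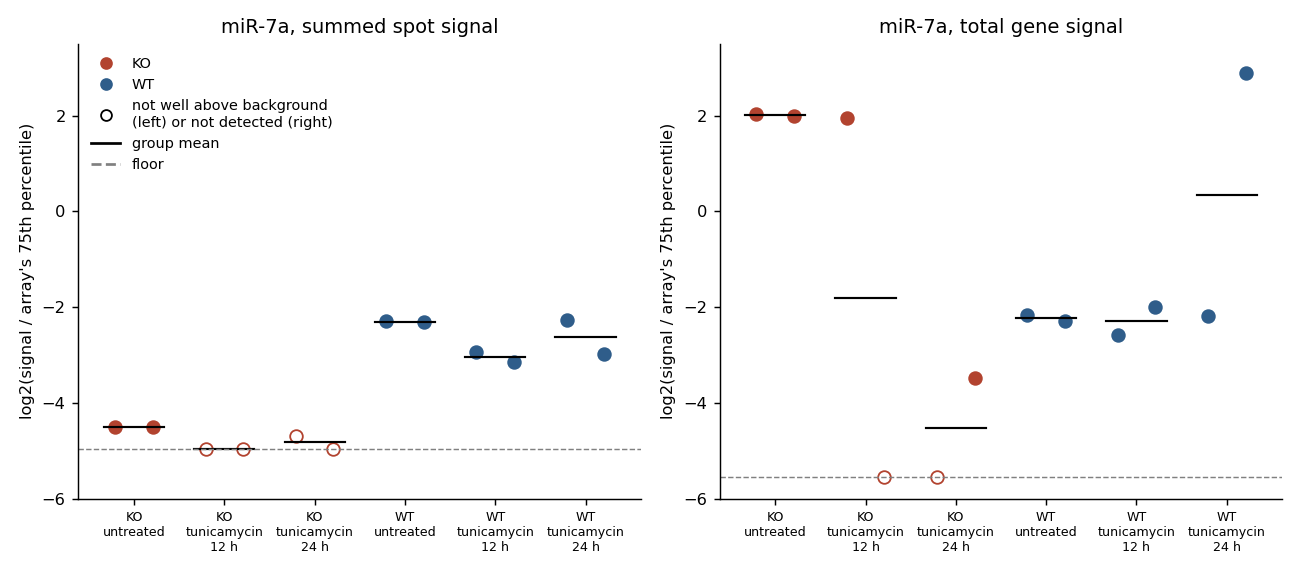
Level of miR-7a on each array as log2 of the signal over the array's 75th percentile, from the summed spot signal (left) and from the total gene signal (right), with KO (red) left of WT (blue), black lines for group means of 2 arrays and dashed lines for the floor; open circles were not well above background (left) or not detected (right). From the spots every KO array lies below every WT array, whereas from the total gene signal both untreated KO arrays lie near 2 and both untreated WT arrays near -2.2.

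The difference between genotypes that replicates matched most closely was that of untreated cells. miR-7a averaged -4.50 ± 0.01 in untreated KO and -2.30 ± 0.01 in untreated WT cells (SD, n = 2 arrays each), a log2 difference of -2.19 with a standard error of 0.22, or 4.57-fold lower in KO. The standard error comes from limma's fit, in which the 6 groups shared 1 estimate of the spread. Arrays raised to the floor enter that estimate, and KO at 12 h, with both arrays at the floor, had an SD of 0. The shared standard error can therefore be too small for groups that spread more. The untreated difference was -2.20 within the scan of replicates 1 and -2.19 within that of replicates 2. The median over the 145 miRNAs in this comparison was -0.49, and 5 of them had a lower value than miR-7a. Without scaling, the summed signals averaged 33.2 in untreated KO and 114.7 in untreated WT cells, 3.45-fold lower in KO, although the KO arrays had the higher 75th percentiles. With 4 other scalings the log2 difference lay between -1.62 and -1.87, and relative to the median of all tested miRNAs it lay between -1.60 and -1.70 with these and the scaling used here. It changed sign, to 4.24 higher in KO, when the total gene signal replaced the spot signal, and to 0.44 with normexp background correction. After normexp the summed signal was 1275 on replicate 1 and 154 on replicate 2 of untreated KO. With normexp without the spots dimmer than their background, the difference was -0.71.

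At 12 h of tunicamycin the floor limited what could be measured in KO cells. miR-7a averaged -4.96 in KO and -3.04 ± 0.14 in WT cells (n = 2 each), a log2 difference of -1.92 with a standard error of 0.22. Since both KO arrays were not well above background, this is a bound: taking for each such array the higher of its own value and the lowest level well above background on that array, miR-7a was at least 3.56-fold lower in KO than in WT cells. Against WT arrays of the same scan the differences were -2.02 and -1.82. At 24 h miR-7a averaged -4.82 ± 0.19 in KO and -2.63 ± 0.51 in WT cells, a difference of -2.20 with a standard error of 0.22, and it was at least 3.86-fold lower in KO. The values within the 2 scans were -2.42 and -1.97. Set beside all 145 tested miRNAs, whose medians were 0.05 at 12 h and 0.00 at 24 h, miR-7a had the second lowest KO minus WT value at 12 h and the lowest at 24 h. At 12 h the sign turned to 0.49 with the total gene signal, and at 24 h it was negative under every alternative run. Both bounds hold only for the background correction, scaling and floor used here. With the floor at 2 times the differences were -0.92 at 12 h and -1.33 at 24 h. With normexp without the spots dimmer than their background they were -0.36 and -0.45.

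Tunicamycin against untreated gave smaller differences, each of which includes the change of slide, and each genotype's 2 time points share their untreated arrays. In WT cells miR-7a was -3.04 ± 0.14 at 12 h of tunicamycin and -2.30 ± 0.01 untreated, a log2 difference of -0.74 with a standard error of 0.22, where the median of all tested miRNAs was -0.32. At 24 h in WT cells the difference was -0.33, against a median of -0.17, and it rested on single arrays. Without replicate 2 of the WT arrays at 24 h it was 0.03, and without replicate 1 it was -0.68. Before scaling, the WT signals averaged 60.4 at 12 h and 52.2 at 24 h, or 1.90-fold and 2.20-fold below the untreated 114.7. The 75th percentiles of the untreated WT arrays were above 3 of the 4 WT tunicamycin arrays. Without scaling the 24 h difference was -1.15, and the median of all tested miRNAs was -0.94.

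In KO cells the tunicamycin arrays were not well above background for miR-7a and by that rule held at most a bound. Before scaling, the signals averaged 11.3 at 12 h and 11.8 at 24 h of tunicamycin, against the untreated 33.2. After scaling, miR-7a was at least 1.30-fold lower at 12 h than in untreated KO cells, with a measured mean of -4.96 at 12 h against -4.50. At 24 h the measured mean was -4.82, and the bound of at least 1.06-fold lower rested on replicate 2. On replicate 1 the lowest level well above background was -4.20, above untreated KO, so that array alone gives no bound. The differences from untreated KO cells turned to 0.12 at 12 h and 0.43 at 24 h with normexp without the spots dimmer than their background. Before scaling, those normexp signals were still higher in untreated KO cells, at 148.3 and 154.4. They were 123.1 and 133.9 at 12 h and 120.5 and 132.6 at 24 h. The sign turned only after scaling of signals that still hold normexp's offset per probe, so it does not settle the direction. With the floor at 2 times both differences were 0.00. That floor lies above every KO array and makes them all equal, so it cannot show a direction. The KO response at 12 h minus the WT response was 0.28 with a standard error of 0.31, below the median of 0.49 over all tested miRNAs. Its sign turned under each of the 4 other scalings, to between -0.17 and -0.42, and the KO part of it sits on the floor, so these arrays gave no direction for the difference in response of miR-7a.

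By mean level the groups ran, from high to low, untreated WT, WT at 24 h, WT at 12 h, untreated KO, and the 2 KO tunicamycin groups. The arrays of WT at 24 h, at -2.27 and -2.99, enclosed both untreated WT arrays and overlapped the range of WT at 12 h, from -3.14 to -2.94, so their place in this order is not settled. WT at 12 h and untreated KO were separated by more than the spread of either. The KO groups at 12 h and 24 h, both at or near the floor, have no order.

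The total gene signal of the same spots gave another order of the groups. This value, one per miRNA and array, is made by the scanner software from the probes it counts as detected, and the deposited log2 table equalled its log2 within 0.001 for every value on all 12 arrays. For miR-7a it was 1681 and 2027 on the untreated KO arrays, 1142 and not detected on the KO arrays at 12 h, and not detected and 33.8 on the KO arrays at 24 h. It was 75.8 and 77.1 on the untreated WT arrays, 37.3 and 94.0 on the WT arrays at 12 h, and 39.6 and 1772 on the WT arrays at 24 h. In the deposited log2 values untreated KO cells averaged 10.85 and untreated WT cells 6.26, a difference of 4.59, or 24.2-fold higher in KO. The summed spots of the same 4 arrays, unscaled, gave a log2 difference of -1.79, or 3.46-fold lower in KO.

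The 2 measures could be reconciled by arithmetic. A probe's total was its mean spot signal times a factor particular to the array, 0.646 to 0.708, and a probe counted as detected when its total exceeded 3 times its stated error, a rule that gave the software's detection call for all 650 names on every array. Where all probes of a name were detected, the total gene signal was the sum of its own probe totals, in 1232 of 1232 cases over the 12 arrays. Where only some probes were, it could instead equal the sum of its own detected probes plus the whole total of the detected name just before it in alphabetical order. That held, within 0.1%, for 545 of 617 such cases, namely those whose first probe was undetected. In 70 others the total was the name's own sum, and 2 cases met neither form. These sums are properties of the deposited numbers, and how the software came to them was not tested.

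For miR-7a the names just before it were miR-764-5p, where detected, and otherwise miR-720. On 4 arrays, all WT (untreated replicates 1 and 2, and replicate 1 at 12 h and at 24 h), both probes were detected and the total was miR-7a's own. On 6 arrays only the brighter probe was detected and the total held the preceding name's total as well. On the untreated KO arrays miR-7a's own detected probe gave 19.1 and 21.8, and miR-720 gave the other 1662 and 2005, so that the totals were 88.0 and 93.0 times miR-7a's own. On replicate 1 of the KO arrays at 12 h its own part was 4.85 and that of miR-720 was 1137, a total 235 times its own. On replicate 2 of the KO arrays at 24 h its own part was 8.80 and miR-764-5p added 25.0. Among WT arrays, replicate 2 at 12 h had 39.7 of its own and 54.3 from miR-764-5p. Replicate 2 at 24 h had 27.5 of its own and 1745 from miR-764-5p, of which only 9.15 was that name's own and 1735 was the total of miR-720. On the remaining 2 arrays, KO replicate 2 at 12 h and KO replicate 1 at 24 h, no probe of miR-7a was detected.

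**Figure D3:**
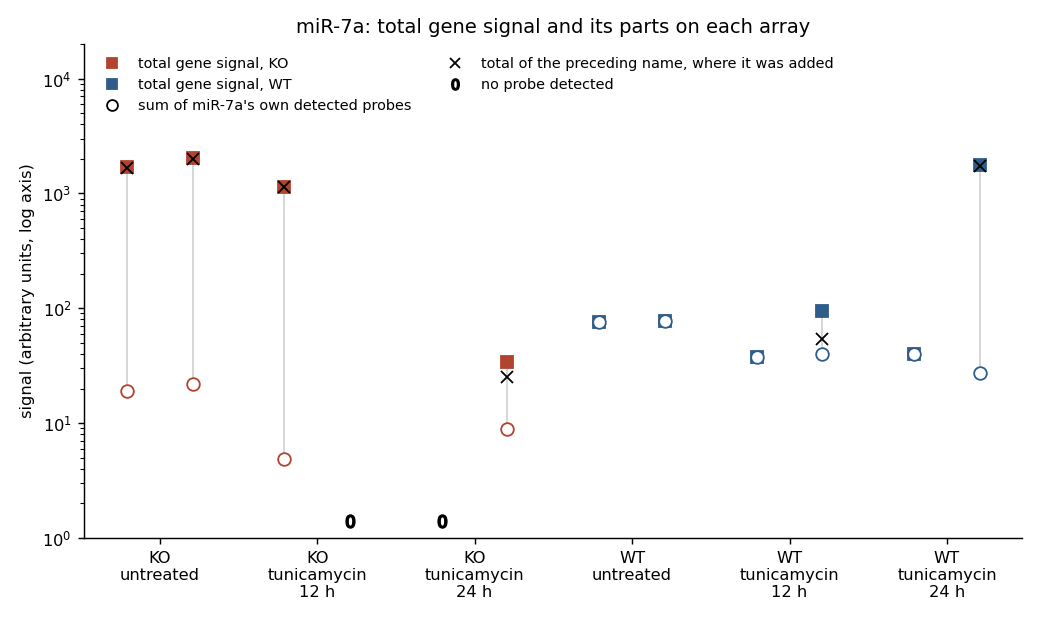
Total gene signal of miR-7a (squares), the sum of its own detected probes (open circles) and, where it was included, the total of the preceding name (crosses) on each array, in arbitrary units on a log axis, KO (red) left of WT (blue); a 0 at the foot marks an array with no detected probe. The circles and squares coincide on 4 WT arrays, and on both untreated KO arrays the square sits on the cross, at 1681 and 2027, far above the circle at 19.1 and 21.8.

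With the preceding total taken out, an alternative chosen after seeing the data, miR-7a's own detected totals were 19.1 and 21.8 on untreated KO against 75.8 and 77.1 on untreated WT arrays. Scaled by the 75th percentile of such totals, the log2 difference of untreated KO minus WT was -2.16, close to the -2.19 from the spots. Since a probe's total is its mean spot signal times an array factor, both values come from the same spots, and the closeness is no separate support. The log2 difference was -3.26 at 12 h and -3.52 at 24 h, where KO arrays with no detected probe were set to that measure's own floor.

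miR-7a was chosen because its 2 measures differed, so its place in a ranking of that gap follows from the choice and is a description. Among the 145 tested miRNAs miR-7a showed the widest gap between the measures. The log2 ratio of total gene signal to summed spot signal had an SD of 3.22 over the 10 arrays where miR-7a was detected, and a range of 7.58. The next were miR-872 with an SD of 2.48, miR-218 with 2.29, miR-139-3p with 2.00, miR-100 with 1.88 and miR-152 with 1.79. These SDs rest on unequal numbers of arrays, such as 12 for miR-872 and 7 for miR-218. The median SD over all 145 was 0.162, 38 had an SD above 1, and 71 had at least 1 array on which the total exceeded their own probes. Per array, 40 to 57 of the 109 to 191 detected names carried the total of a preceding name, or 27.0% to 36.7%.

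**Figure D4:**
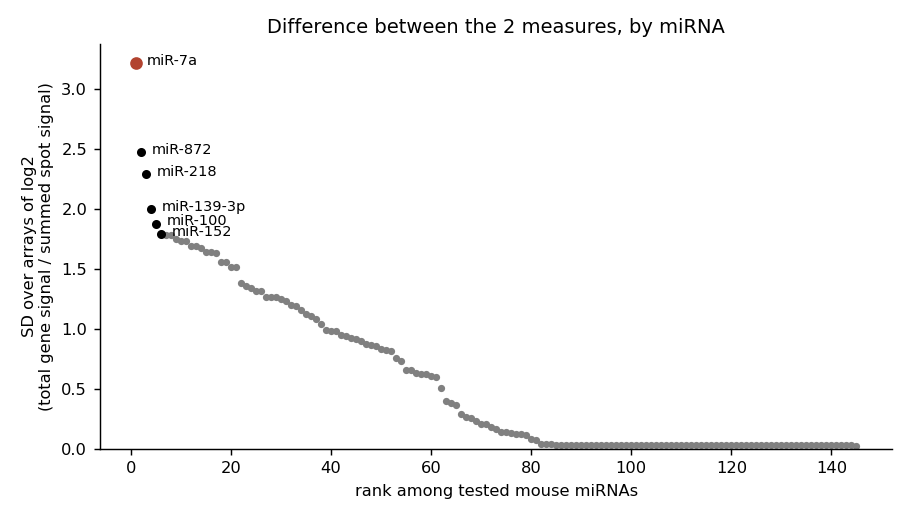
SD over arrays of the log2 ratio of total gene signal to summed spot signal (vertical axis, log2 units) for each of the 145 tested mouse miRNAs, ranked from widest to narrowest (horizontal axis), with miR-7a in red and the next 5 in black and named. miR-7a, which was chosen because the measures differed for it, lies at 3.22, above miR-872 at 2.48, and the median is 0.162.

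Neither close relative of miR-7a was measured well. miR-7b, with 20 spots, was well above background on none of the 12 arrays, and its summed signal lay between 2.91 and 6.77 on the KO arrays and between 2.69 and 5.98 on the WT arrays, which overlap. miR-7a* was also well above background on none, with -1.59 to 5.39 on the KO arrays and -0.52 to 5.76 on the WT arrays. Neither passed the filter for testing, so whether either differed between the genotypes by the size seen for miR-7a was not tested.

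Of 16 names on a list of neuron- and endocrine-enriched miRNAs, 14 were on the array, 11 of these were well above background on no array, and 2 were bright enough to be tested, miR-129-3p and miR-129-5p. miR-375, an islet miRNA, and miR-124 and miR-9, neuronal ones, were among the 11. miR-129-3p gave 32.0 and 32.8 on untreated KO and 120.4 and 105.7 on untreated WT arrays, unscaled, and was lower in untreated KO by limma (log2 difference -2.20, standard error 0.33, adjusted p = 0.00522). miR-129-5p gave 13.8 and 15.2 on untreated KO and 36.8 and 35.5 on untreated WT arrays, unscaled. After scaling, both untreated KO arrays of miR-129-5p sat at the floor of -4.96, and 1 of them was well above background, so its log2 difference of -0.99 (standard error 0.23, limma adjusted p = 0.0192) is set by the floor and bounds the size of the difference from below. Both of the tested names were thus called in this comparison, in which 32.4% of all 145 miRNAs were called. The response to 12 h differed between the genotypes for miR-129-3p (KO minus WT 1.93, standard error 0.46, limma adjusted p = 0.0292), where 22.8% of all were called. These were 3 calls among the 16 tests of both names over the 8 comparisons. With the scan as a block, which allows 8 of these tests, 4 were called: the same 3 and the difference in 12 h response of miR-129-5p (KO minus WT 0.79, limma adjusted p = 0.0426, against 0.141 without the block). In the comparisons without a call, the share of all miRNAs called was 24.8% for KO minus WT at 12 h and 15.2% at 24 h, 0.69% and 2.07% for 12 h and 24 h against untreated in KO cells, and 31% and 15.2% in WT cells.

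The calls of the miR-129 pair depended on the processing. For miR-129-3p the untreated call held in 25 of 31 alternatives; it was lost with the 75th percentile over all miRNAs (limma adjusted p = 0.526) and with quantile scaling (limma adjusted p = 0.424), and the value turned to 1.81 with the total gene signal and to 0.45 with normexp. For miR-129-5p it held in 17 of 30, and was lost without any 1 of the 4 untreated arrays (limma adjusted p = 0.0757 to 0.0948) and with 3 of the 4 other scalings. Its value followed the floor, at -1.72 with the floor at 0.5 times and 0.00 with the floor at 2 times (limma adjusted p = 0.00454 and 1), and turned to 1.00 with normexp. Its difference in 12 h response did so too, at 1.52 and 0.00 (limma adjusted p = 0.0273 and 1). The difference in 12 h response of miR-129-3p was lost with 3 of the 4 other scalings, with no filter (limma adjusted p = 0.171), with the floor at 2 times (limma adjusted p = 0.0591) and without any 1 of 7 arrays (limma adjusted p = 0.0674 to 0.0926), namely each untreated array, each KO array at 12 h and WT replicate 2 at 12 h. It turned to -2.53 with the total gene signal and to -0.55 with normexp. Normexp without spots dimmer than their background gave 0.66 for this response of miR-129-3p. For the untreated difference it gave -0.70 for miR-129-3p and -0.15 for miR-129-5p, and none of these was called.

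By the pattern of their log2 levels over the 12 arrays, the tested miRNAs most like miR-7a were miR-125b-5p (Pearson r 0.95), miR-155 (0.93), miR-31 (0.92), miR-210 (0.92) and miR-222 (0.91). The median r over the other 144 miRNAs was 0.11. All 12 points share the scaling and the floor, and the 6 groups set most of the pattern, so these values describe likeness alone. miR-155, a miRNA of activated immune cells, averaged -4.84 in untreated KO, near the floor, and -2.16 in untreated WT cells. That gap was wider than the one of miR-7a, which averaged -4.50 and -2.30. miR-210, the main miRNA induced by low oxygen, averaged -4.96, the floor, in untreated KO and -1.25 in untreated WT cells. miR-125b-5p, abundant in fibroblasts, averaged 1.82 in untreated KO and 2.47 in untreated WT cells, a far smaller gap at a far brighter level.

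The differences of miR-7a between genotypes were recomputed with other measures, scalings, floors and fits. The KO minus WT value of untreated cells was negative in 15 of the 18 alternatives that kept all arrays, and positive with normexp, the deposited table and the total gene signal. At 12 h it was negative in 16 of 18, the exceptions being the deposited table and the total gene signal, and at 24 h in 18 of 18. The 18 are not independent checks. Dropping the filter, using the spread of the compared groups only and adding either block cannot change these values. The deposited table and the total gene signal repeat each other. Leaving out any 1 array moved the untreated value only between -2.20 and -2.19, the 12 h value between -2.02 and -1.82, and the 24 h value between -2.55 and -1.84. Only arrays of the compared groups could move a value. At 12 h both KO arrays sat at the floor, so leaving out either could not move the value, and its range came from the WT arrays.

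**Figure D5:**
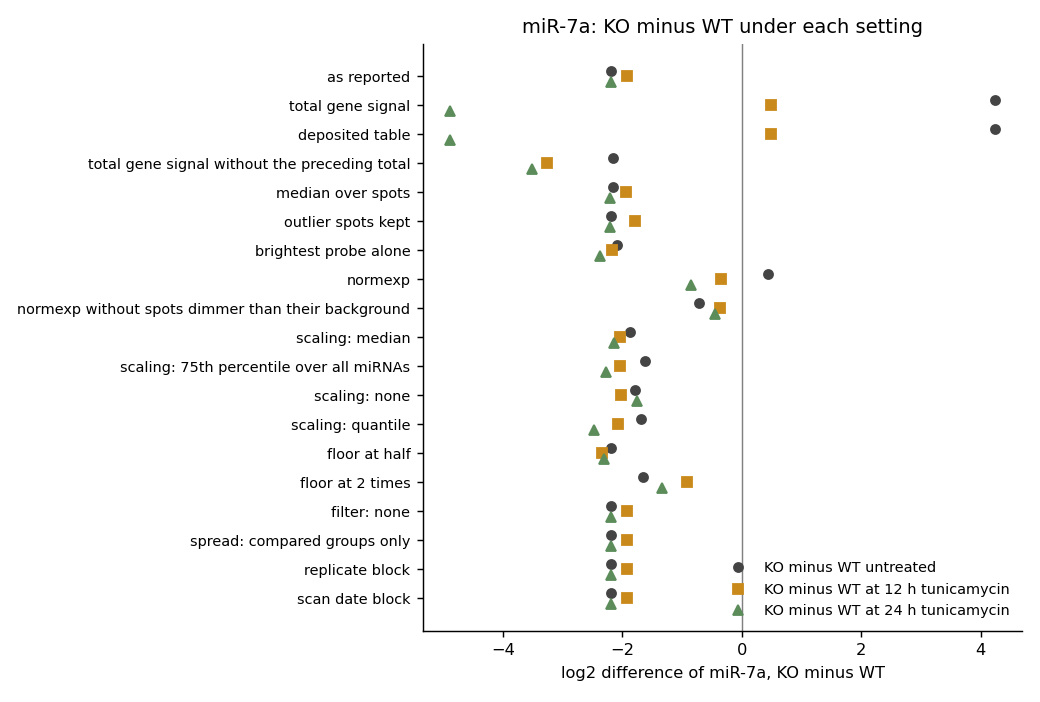
Log2 difference of miR-7a, KO minus WT (horizontal axis), in untreated cells (circles), at 12 h (squares) and at 24 h of tunicamycin (triangles), as reported and under each alternative that kept all arrays (vertical axis). The points lie left of 0 except for untreated cells and 12 h with the deposited table and the total gene signal, and for untreated cells with normexp at 0.44. Normexp without spots dimmer than their background puts untreated cells at -0.71.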

How the data were processed

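Total RNA was labelled with Cy3 and hybridised to miRNA arrays, per the labels' protocols, and read with Agilent Feature Extraction 10.7.1.1, per the submitters' processing notes. The deposited spot values, processed signals and total gene signals are intensity in arbitrary units, not scaled between arrays, per the file headers. The deposited table is log2 of the total gene signal, and undetected names, 0.1 in the scanner files, are blank. Each array had 13715 spots, of which 13000 were no controls.

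The signal of a miRNA was the sum over probes of the mean processed signal of spots, without control and outlier spots, scaled to the 75th percentile of 82 miRNAs on that array, raised to a floor (0.0322) near the lowest scaled signals that were well above background, and logged (log2). The 145 mouse miRNAs that passed the filter were fitted in limma 3.58.1 (R 4.3.3), group means and eBayes, with 6 residual and 1.03 prior degrees of freedom, and Benjamini-Hochberg adjustment at 0.05. With 2 arrays a group, the number of arrays limits precision. The fit was run on 20 rounds of simulated data in which 40 of the 145 miRNAs were lowered in untreated KO. It called 61.5% of the changes of 1 log2 unit and 85.8% of those of 2, and on average 4.47% of the calls were false. The simulated arrays had independent errors, no floor and no scan effect, so these shares do not cover such features of the real arrays. Normexp (offset 50) was run on the median foreground in place of the planned mean foreground, which was not used here. miRNAs named are miR-7a, its family, listed miRNAs that were tested, the 5 most alike and the 5 with the widest gap between measures. Members and lists were chosen with earlier results of these data known. Sequences are RefSeq's (GRCm38.p6).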

Additional observations from a re-analysis of the deposited data

How the results depend on the processing

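On the log2 scale, the deposited table and the total gene signal gave the same values for miR-7a. KO minus WT was 4.24 untreated, 0.49 at 12 h and -4.88 at 24 h, tunicamycin minus untreated was -3.82 at 12 h and -6.55 at 24 h in KO and -0.076 and 2.57 in WT, and the difference in 12 h response was -3.75; 0 listed calls remained, against 3. Without the preceding total, the KO minus WT values at 12 h and 24 h were -3.26 and -3.52, the KO values against untreated -1.76 and -1.50, and the difference in response -1.10. Normexp gave 0.44, -0.34 and -0.85 for KO minus WT, -0.96 and -0.65 for tunicamycin in KO, -0.18 and 0.64 in WT, -0.78 for the difference in response and 0 listed calls. After normexp the median over all spots was 636.1 on untreated KO replicate 1 and 162.2 on WT replicate 2 at 24 h, against 56.8 to 71.5 elsewhere, and these arrays held 4 and 6 spots dimmer than their local background. Leaving such spots out, a choice made after seeing the data, gave -0.71, -0.36 and -0.45 for KO minus WT, 0.12 and 0.43 for tunicamycin in KO, -0.23 and 0.17 in WT, and 0 listed calls; the offset of 50 per probe remains in it.

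Scaling by the median gave -1.87 for untreated KO minus WT, -0.44 for WT at 12 h, -0.17 for the difference in response and 1 listed call. The 75th percentile over all miRNAs gave -1.62 for untreated KO minus WT, -1.02 and -0.78 for KO against untreated at 12 h and 24 h, -0.42 for the difference in response and 0 calls. Quantile scaling gave -1.69 untreated and -2.48 at 24 h for KO minus WT, -1.05 and -1.05 in KO against untreated, -0.38 and 0 calls. No scaling gave -1.79 untreated and -1.76 at 24 h, -1.16 and -1.12 in KO, -1.15 in WT at 24 h, -0.23 and 8 calls. The brightest probe alone gave -0.49 in WT and -2.17 for KO minus WT at 12 h, and -0.0725 for the difference in response. A floor at 0.5 times gave -0.88 in KO and -2.34 for KO minus WT at 12 h, and -0.15; a floor at 2 times, above untreated KO, gave 0.00 for KO at both times, -1.65, -0.92 and -1.33 for KO minus WT, and 0.74.

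Listed calls were 1 with no filter and 5 with the spread of the compared groups only. With the replicate number as a block (replicate block) they were 6, and untreated KO minus WT stayed at -2.19. Same-numbered arrays deviated together within a slide and oppositely across slides (r from -0.54 to 0.95 over miRNAs), so the numbers do not pair the samples over both slides. With the scan as a block, 4 of 8 listed tests were called, and tunicamycin against untreated could not be fitted. Leaving out 1 array at a time gave 1 to 10 listed calls, -0.68 to 0.0326 for WT at 24 h against untreated, and -2.55 to -1.84 for KO minus WT at 24 h. For the filter of all 12 arrays miR-7a is not tested. Other causes of these shifts were not tested.

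Signal over background limits these results. miR-7a was well above background on no KO tunicamycin array, so by that rule it has only an upper bound there. The software's detection rule still counted its brighter probe as detected on KO replicate 1 at 12 h and KO replicate 2 at 24 h. The dimmer probe was well above background on 1 array, and 2 arrays a group leave the spread poorly known. All 4 untreated arrays lie on 1 slide.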
